A study of Homo sapiens with 9 samples.

Results

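Chromatin that is open to proteins can be cut by a transposase, and ATAC-seq maps these sites by sequencing the fragments. In T47D, a human breast cancer line of luminal type that depends on the oestrogen receptor, 2389 of 97804 open regions were called in normoxia, were not called in hypoxia, and were called again in hypoxia when ZHX2 was knocked down. They are referred to as regained regions, and all normoxia regions without a call in the hypoxia control as lost. They were chosen by their calls alone: the 3 deposited lists were merged, intervals that shared at least 1 bp became 1 region, and regions with an interval in the normoxia list and in the shZHX2 list and none in the hypoxia control list were kept. The calls that chose them are therefore a description and support nothing.

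Per the labels, 9 samples formed 3 groups of 3: T47D cells with a control hairpin (shCtrl) in normoxia, shCtrl cells kept in hypoxia, and hypoxic cells whose hairpin targets ZHX2 (shZHX2). All cells had been infected with lentivirus and selected with hygromycin or puromycin, so the control cells carry a hairpin too. Hypoxia was applied in a workstation. Its oxygen level and duration, and the number of hairpin sequences behind shZHX2, were not found in the labels. No shZHX2 group in normoxia was analysed here, so an effect of the hairpin in hypoxia cannot be told apart from one at any oxygen level. In bulk cells, fewer open cells and less opening per cell cannot be told apart. Each group was deposited as 1 list of regions, so no value has a replicate error and no difference between conditions could be tested. Intervals given beside shares are 95% Wilson intervals, which cover counting error only, and regions of 1 list share their libraries and are not replicates.

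The lists held 90962 regions in normoxia, 77451 in hypoxia with shCtrl and 62779 in hypoxia with shZHX2, and the read depth behind them is unknown. The labelled cell type was looked up in luminal markers. Of 8 such genes, 7 had a region within 1 kb of a gene end in every list (PGR, GATA3, FOXA1, KRT8, KRT18, KRT19 and SPDEF), and ESR1 had none. Only the outer ends of a gene count here, so an open start inside ESR1 would not be seen. Over all 20050 protein-coding genes the number with an open end was 14888 in normoxia, 14565 in hypoxia shCtrl and 14143 with shZHX2, so these counts say little about cell type. Markers of other cells also had open ends, at 9 of 14 blood genes in normoxia and 7 in each hypoxia list, 7 of 12 stroma and endothelium genes in each list, and 6 of 10 liver and neuron genes in each list.

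Cells short of oxygen stabilise HIF, a transcription factor that binds DNA at sites with the core letters ACGTG and switches on genes of glucose use, vessel growth and pH control. ZHX2 is a zinc finger and homeobox protein that acts in the nucleus. In luminal breast cells the enhancers, distal sites that act on promoters, are largely bound by the oestrogen receptor with the pioneer factors FOXA1 and GATA3. NF-kB, a factor that answers inflammatory signals, binds enhancers and promoters of chemokine genes.

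Reference sequence was at hand for promoters only, as windows of 300 bases from 250 before to 50 after an annotated start (RefSeq, build GRCh38.p14, which shares its coordinates with the hg38 of the lists). A regained region touched 71 of 34943 such windows, 38 of them of protein-coding genes. The 5 shown are CXCL8, the 1 touched window of a gene in the gene lists described further on, and the 4 windows whose regions had the highest strength. Strength was taken as the lower of the percentiles of their 2 folds. List genes without a window could not be seen here, such as CCL2, where a regained region covers a gene end. Each line gives the 250 bases before the start on the strand of the gene, 5′ to 3′, and capitals mark matches to any of 9 motifs. They show how different the touched promoters are in base composition and motif content.
CXCL8: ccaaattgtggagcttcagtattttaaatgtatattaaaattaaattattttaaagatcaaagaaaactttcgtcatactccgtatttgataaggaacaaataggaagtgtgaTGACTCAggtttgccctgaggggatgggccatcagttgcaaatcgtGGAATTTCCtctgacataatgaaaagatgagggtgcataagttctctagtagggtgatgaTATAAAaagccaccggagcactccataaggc
LINC02958: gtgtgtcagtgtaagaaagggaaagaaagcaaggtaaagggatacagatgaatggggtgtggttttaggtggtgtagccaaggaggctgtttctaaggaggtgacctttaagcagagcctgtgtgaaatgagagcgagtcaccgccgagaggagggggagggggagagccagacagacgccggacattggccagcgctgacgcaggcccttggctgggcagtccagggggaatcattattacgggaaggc
CALCRL: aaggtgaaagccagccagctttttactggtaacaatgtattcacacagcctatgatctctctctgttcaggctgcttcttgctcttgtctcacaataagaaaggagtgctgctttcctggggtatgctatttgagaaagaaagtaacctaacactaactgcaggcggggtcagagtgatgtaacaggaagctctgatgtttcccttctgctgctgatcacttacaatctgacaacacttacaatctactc
LPAR6: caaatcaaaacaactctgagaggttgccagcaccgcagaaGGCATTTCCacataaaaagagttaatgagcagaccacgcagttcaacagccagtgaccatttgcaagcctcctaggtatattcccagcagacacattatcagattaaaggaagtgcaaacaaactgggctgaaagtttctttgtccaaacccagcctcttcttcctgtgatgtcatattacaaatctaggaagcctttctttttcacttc
LOC124902547: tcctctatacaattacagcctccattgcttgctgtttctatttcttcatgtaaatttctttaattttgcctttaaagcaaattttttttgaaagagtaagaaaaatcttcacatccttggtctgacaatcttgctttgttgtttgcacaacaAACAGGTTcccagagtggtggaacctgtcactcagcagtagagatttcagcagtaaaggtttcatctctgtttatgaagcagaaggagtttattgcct

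CXCL8 encodes interleukin 8, a chemokine that attracts neutrophils and a textbook NF-kB target. Its printed stretch is chr4:73740319-73740568, plus strand, and the regained region at chr4:73740472-73740835 covers the last 97 of the 250 bases and the start of the gene. The match to the NF-kB motif, GGAATTTCC, spans 91 to 83 bases before the start and lies inside the region, as does TATAAA at 31 to 26 bases. The AP-1 match, TGACTCA, at 137 to 131 bases lies outside it. A match is a run of letters and not evidence that a protein bound there.

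The other printed stretches lie wholly inside regained regions. LINC02958, a long noncoding RNA (chr18:23982543-23982792, minus strand), had 55.6% G and C and no match. CALCRL, which encodes the receptor for the peptides CGRP and adrenomedullin (chr2:187448253-187448502, minus strand), had 44.0% G and C and no match. LPAR6, a receptor for lysophosphatidic acid (chr13:48413114-48413363, minus strand), had an NF-kB match, GGCATTTCC, at 210 to 202 bases before the start. LOC124902547, an uncharacterised long noncoding RNA (chr10:57925014-57925263, plus strand), had 36.4% G and C and a match to the motif of GRHL factors, AACAGGTT, which are regulators of epithelia.

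Promoters touched by regained regions were poor in G and C. Their median GC content was 46.7%, against 58.7% over all 34943 windows, 55.3% for the 327 windows touched by regions called in normoxia only and 66.0% for those touched by regions of all 3 lists. Windows touched by regions called with shZHX2 only had a median of 45.8% (n = 44). Their median number of CpG dinucleotides was 5 for regained regions, 6 for normoxia only and 26 for all 3 lists.

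The GC content of a promoter went with whether it was regained. Of windows touched by a normoxia region that was not called in hypoxia shCtrl, 26 of 62 with a GC content below 45% were touched by a regained region (41.9%, interval 30.5 to 54.3). Between 45% and 60% it was 36 of 209 (17.2%, 12.7 to 22.9), and from 60% upwards 9 of 127 (7.09%, 3.77 to 12.9). The order was the same for normoxia regions with a −log10 p below 30, at 40.0%, 16.9% and 7.63%. Among normoxia regions below 30 that hypoxia shCtrl did call, the share called with shZHX2 was 77.0%, 51.4% and 62.5% in the same 3 bands. The low band was again the highest, but the other bands had no such order. These 2 sets share the limit of 30 and are not matched on strength below it. Over all regions, the weakest normoxia decile held 6687 not called in hypoxia shCtrl and 2394 called. The fourth decile, up to 30.2, held 2077 and 7005. Some windows overlap under the same region, and the intervals treat windows as independent. Base composition was not measured outside promoters, and its part in the regained calls was not tested.

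**Figure D1:**
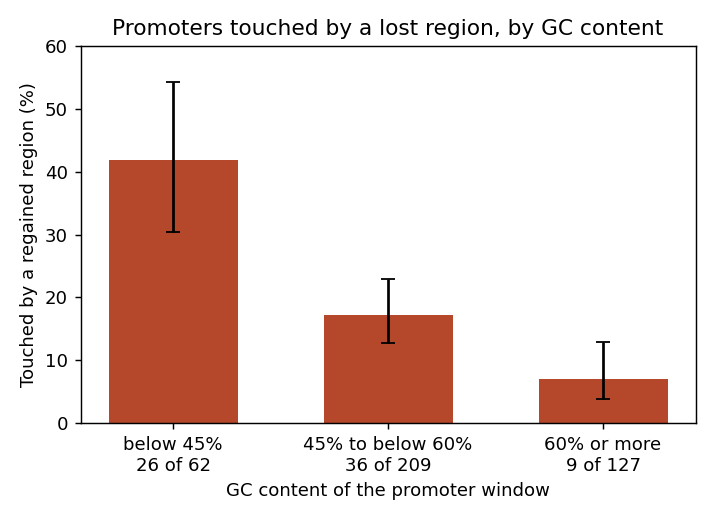
Share of promoter windows touched by a normoxia region not called in hypoxia shCtrl that were touched by a regained region (%, y axis), by GC content of the 300-base window (x axis). Bars are shares with 95% Wilson intervals, and the share goes down from 41.9% to 17.2% to 7.09%.

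The 9 motifs were searched on both strands: AP-1 as TGANTCA, NF-kB as GGNNTTTCC, the hypoxia response core as ACGTG, the oestrogen response element as its palindrome with a spacer of 3 bases, GATA as AGATAA, FOX as TGTTTAC, GRHL as AACCNGTT, SP/KLF as GGGCGG and TATA as TATAAA. SP/KLF, a GC-rich box of housekeeping promoters, was in 11 of 71 touched windows (15.5%). It was in 44.9% of all windows, 29.7% of those touched by normoxia-only regions and 9.09% of those touched by shZHX2-only regions. TATA was also in 15.5%, against 11.6% of all windows. NF-kB was in 9 windows (12.7%, 6.81 to 22.4), against 6.25% of all windows and 8.26% for normoxia only. AP-1 was in 7 (9.86%, 4.86 to 19.0), against 7.72% and 15.9%.

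The hypoxia response core was in 15 windows (21.1%), near the 21.4% of all windows. GRHL was in 4 (5.63%) against 1.73% of all, FOX in 3 (4.23%) against 3.42%, and GATA in 3 (4.23%) against 10.4%. For GRHL the share was 2.75% in windows touched by normoxia-only regions, 3.08% for both shCtrl lists and 4.55% for shZHX2 only. The oestrogen response element was in none, which allows a share of up to 4.23%, and in 0.0572% of all windows. The intervals of AP-1, FOX, GATA, TATA and the hypoxia core include the share over all windows. That of SP/KLF (8.88 to 25.7) lies below it, and those of NF-kB and of GRHL (2.21 to 13.6) lie above it. The GRHL interval includes the shares for normoxia only, both shCtrl lists and shZHX2 only. The NF-kB interval includes the normoxia-only share of 8.26%. It lies above the 6.64% for both shCtrl lists and the 2.27% for shZHX2 only (1 of 44, interval 0.402 to 11.8). Some windows overlap under the same region, as those of NCOA7 and LOC124901397 do, so a motif copy can be counted repeatedly. The intervals treat windows as independent and are too narrow to that extent. Over the 250 bases before the start alone, GRHL was in 3 windows (4.23%, against 1.49% of all windows), and its interval of 1.45 to 11.7 includes that share.

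Regained regions were weak against the whole of the lists that called them, and about as weak as regions called in 1 of those lists alone. In normoxia their −log10 p, the authors' measure of how far the signal stands above the local background, ran from 10.1 to 82.0 with a median of 18.6, where the list as a whole had a median of 41.3. With shZHX2 it ran from 10.0 to 118 with a median of 16.8, where the list had 46.2. Normoxia-only regions had a median of 16.2 and shZHX2-only regions one of 17.0. The fold enrichment over background had a median of 3.21 in normoxia and 3.38 with shZHX2, against 4.13 and 4.79 over the whole lists. Of the 2389 regions, 2311 (96.7%) were below the median −log10 p of both lists and 3 were above it in both.

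Nearly all were simple overlaps. Merged regained regions were 200 to 2147 bp wide with a median of 391 bp, together 1.17 Mb. The median was 300 bp for normoxia only, 267 bp for shZHX2 only and 711 bp for all 3 lists. A merged regained region spans the intervals of both lists. Its normoxia interval alone had a median of 350 bp and its shZHX2 interval one of 294 bp. Of the regained regions, 2387 joined 1 normoxia interval with 1 shZHX2 interval. The shorter of these lay wholly inside the other in 1334 regions. The fold was higher with shZHX2 than in normoxia in 1534 regions (64.2%). The same held for 32266 regions of all 3 lists (56.5%). Of the 4033 regions of all 3 lists whose normoxia −log10 p lay in the interquartile range of regained regions, it held for 3026. That set was matched on normoxia strength alone. Folds rank regions within a list only, so these counts do not show a difference between conditions.

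The threshold of calling lay close by. Every deposited region has a −log10 p above 10, and the regained region nearest to that value, on chromosome 21 at 41113131 to 41114026, had 10.0 with shZHX2 and 28.0 in normoxia. Just outside the rule stands a region on chromosome 1 at 25520496 to 25520903, which had 16.5 in normoxia and 16.4 with shZHX2 and was called in hypoxia shCtrl at 10.2. No hypoxia shCtrl value exists for a regained region, so a site just under the threshold cannot be told apart from one with no signal. The nearest hypoxia shCtrl region lay 167 bp away in the closest case and 11122 bp away in the median.

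Regaining was the exception among sites not called in hypoxia. Of 90816 merged regions with a normoxia call, 18743 (20.6%) were not called in hypoxia shCtrl, and 2389 of these (12.7%) were called with shZHX2. Of the 72073 that hypoxia shCtrl did call, 79.2% were called with shZHX2. Seen from the other side, 4394 of 62228 regions with a shZHX2 call (7.06%) were not called in hypoxia shCtrl. Of these, 2389 (54.4%) were called in normoxia. Of the 57834 regions with a shZHX2 call that hypoxia shCtrl did call, 98.7% were called in normoxia.

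The share regained was higher among regions that were stronger in normoxia. In the weakest decile of normoxia regions 544 of 6687 lost regions were regained (8.14%), in the third decile 591 of 3630 (16.3%), in the fifth 184 of 862 (21.3%), in the sixth 49 of 240 (20.4%) and in the seventh 8 of 28 (28.6%, 15.3 to 47.1). Regions of the same deciles that hypoxia shCtrl did call had the shZHX2 call in 26.4%, 45.2%, 70.1%, 83.6% and 93.7%. Above the seventh decile only 2 normoxia regions were not called in hypoxia shCtrl, and neither was regained.

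**Figure D2:**
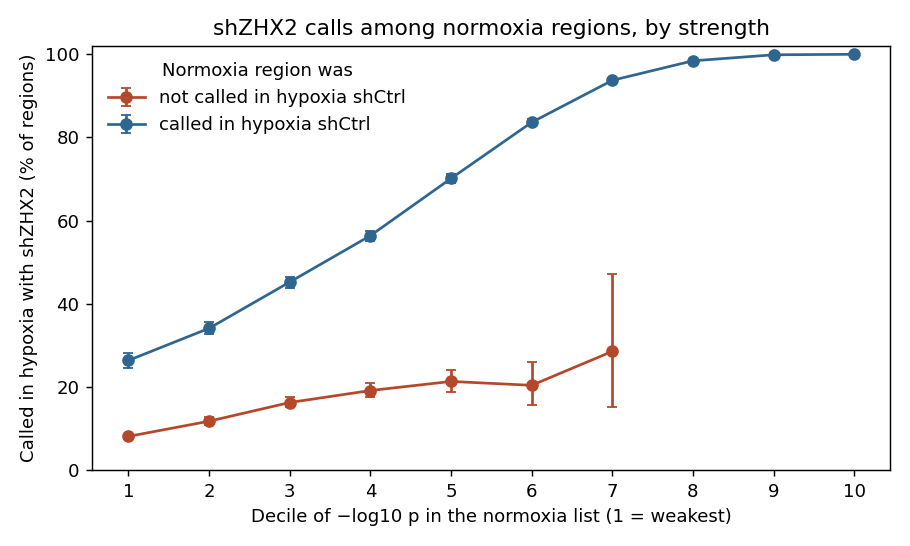
Share of normoxia regions called in hypoxia with shZHX2 (%, y axis) by decile of the normoxia −log10 p (x axis), with 95% Wilson intervals, for regions not called (red) and called (blue) in hypoxia shCtrl. Deciles with fewer than 20 regions are left out, and the red points lie below the blue ones in each decile where both are drawn.

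Regained regions lay mostly far from gene ends and often inside genes. Only 95 (3.98%, 3.26 to 4.84) were within 1 kb of an end of a protein-coding gene, close to the 4.12% of normoxia-only regions and the 2.89% of shZHX2-only regions, against 23.4% of regions in all 3 lists, which are stronger. At equal strength the gap was smaller, and it was widest in the strongest band. Bands of normoxia −log10 p of 10 to 15, 15 to 20, 20 to 30 and 30 to 60 were compared. The share at a gene end was 3.53%, 4.91%, 3.81% and 2.52% of regained regions and 3.64%, 5.84%, 6.69% and 8.46% of regions in all 3 lists. In the same bands of shZHX2 −log10 p it was 3.63%, 4.93%, 3.17% and 3.74%, against 7.09%, 6.57%, 7.08% and 10.6%. The midpoint lay inside a protein-coding gene in 1282 regions (53.7%, 51.7 to 55.7), against 47.4% (46.7 to 48.2) of normoxia-only regions and 52.2% (50.03 to 54.4) of shZHX2-only regions. The median distance to the nearest gene end was 40078 bp, and 1060 regions (44.4%) were more than 50 kb from any.

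The share inside genes was higher in every kind of region with a shZHX2 call than in every kind without one. The 3 other kinds of region with a shZHX2 call had 52.2% (shZHX2 only), 53.1% (both hypoxia lists) and 53.3% (all 3 lists) inside genes. The kinds without it had 47.4% (normoxia only), 45.3% (both shCtrl lists) and 41.8% (hypoxia shCtrl only). Within a band of normoxia −log10 p from 15 to 20, it was 56.1% of 815 regained and 47.9% of 5685 normoxia-only regions, and from 20 to 30 it was 51.6% and 46.1%. With lists of equal length, 49.9% of the regions that met the rule lay inside a gene. The genes that held regained regions were long, with a median of 163 kb, against 135 kb for normoxia only, 166 kb for shZHX2 only and 85.4 kb for all 3 lists, and these differences were not tested.

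**Figure D3:**
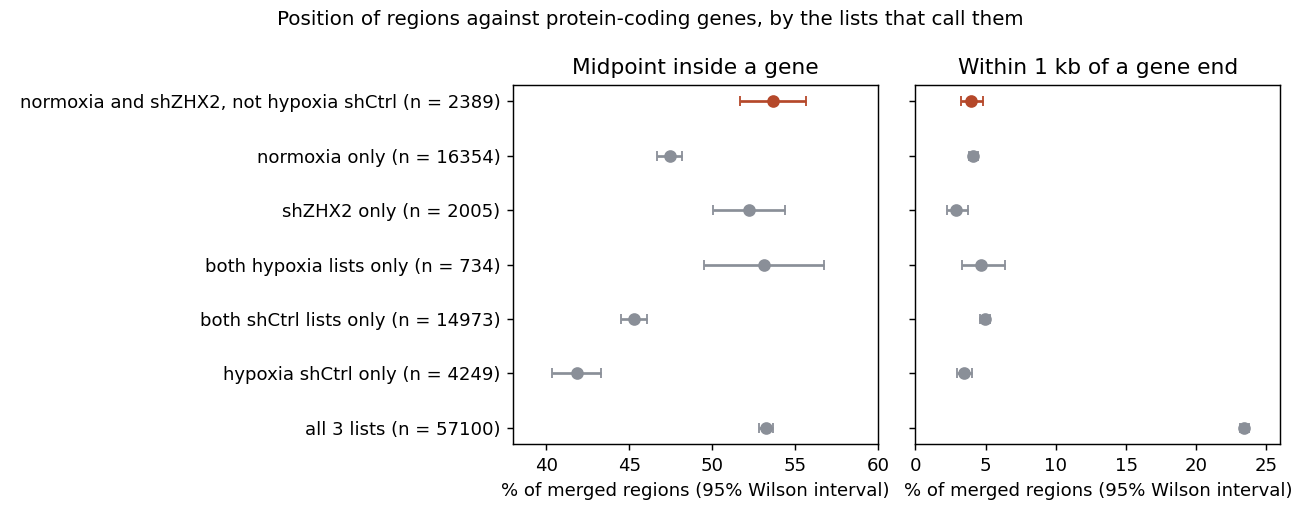
Share of merged regions (%, x axes) with the midpoint inside a protein-coding gene (left) and within 1 kb of a gene end (right), by the lists that call them (y axis). Points are shares with 95% Wilson intervals; regained regions (red) stand at 53.7% and 3.98%, and regions of all 3 lists at 53.3% and 23.4%.

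Chromosomes differed in how many lost regions were regained. The share was lowest on chromosome 19, the most gene-dense, with 34 of 508 (6.69%, 4.83 to 9.21), followed by chromosome 16 with 8.71%, 20 with 9.10% and 10 with 9.78%. It was highest on chromosome 13, with 68 of 389 (17.5%, 14.0 to 21.6), followed by 4 with 16.3% and 18 with 15.5%. Over 23 chromosomes it tended to go down as protein-coding genes per Mb went up (Pearson r −0.67, Spearman rho −0.65). All points come from the same libraries, and the shares were not adjusted for strength. There were exceptions: chromosome 17, with 14.1 genes per Mb, had 13.0%, and chromosome 10, with 5.49, had 9.78%. Around single regions, the mean number of protein-coding genes within 500 kb was 8.25 for regained regions, 9.70 for normoxia only and 8.13 for shZHX2 only. Gene density goes with base composition along chromosomes, and the part of either was not tested.

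**Figure D4:**
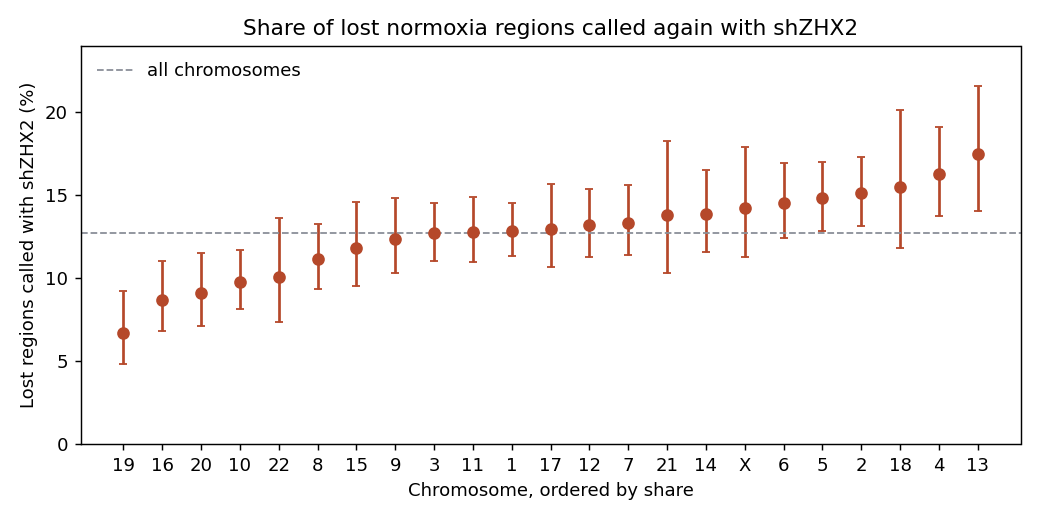
Share of normoxia regions not called in hypoxia shCtrl that were called with shZHX2 (%, y axis) for chromosomes 1 to 22 and X, ordered by share (x axis), with 95% Wilson intervals. The dashed line is the share over all chromosomes, 12.7%; chromosome 19 stands at 6.69% and chromosome 13 at 17.5%.

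Neighbouring regained regions on a chromosome were a median of 683 kb apart, 87 (3.64%) had another within 10 kb and 364 (15.2%) within 50 kb. The nearest open region of any kind was one of all 3 lists for 1293 (54.1%), one of normoxia only for 462 (19.3%) and another regained region for 110 (4.60%). For normoxia-only regions the nearest was a regained one in 2.79%, and regained regions were 2.44% of all regions.

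By gene, 1329 regained regions had a gene end within 50 kb and were assigned to the gene with the nearest end; 1244 of 20050 protein-coding genes (6.20%) had at least 1. At most 3 fell to a gene, and 7 genes (0.0349%) had that number. HGF, which encodes hepatocyte growth factor, the ligand of the MET receptor, had 3, and these were all of its normoxia regions not called in hypoxia shCtrl. One covers an end of the gene on chromosome 7 at 81769881 to 81770216, with folds of 3.75 in normoxia and 3.36 with shZHX2, and the next lies 792 bp from that end, at 81770839 to 81771364, with folds of 3.08 and 3.11. KIF16B, a kinesin that moves endosomes, also had all 3 of 3 on chromosome 20, at folds of 2.74 to 3.09 in normoxia and 2.94 to 3.60 with shZHX2.

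The other genes with 3 were regained in part. MECOM, a zinc finger transcription factor gene, had 3 of 6 lost regions regained, FGD4, which activates the GTPase CDC42, 3 of 4, and CPEB4, an RNA-binding regulator of translation, 3 of 4. CBFA2T3, a transcriptional corepressor gene, had 3 of 6. TRPS1, a GATA-type repressor of luminal cells, had 3 of 7, with normoxia folds of 2.11 to 2.64 and shZHX2 folds of 2.37 to 3.10.

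The strongest regained regions with a gene end within 50 kb had folds above 4 in both lists. The highest lay by UBE2G2, a ubiquitin-conjugating enzyme gene, on chromosome 21 at 44773492 to 44773974, with a fold of 5.11 in normoxia and 6.58 with shZHX2 and −log10 p of 46.2 and 61.4; the nearest hypoxia shCtrl region was 7660 bp away. A region near GLIS3, a zinc finger factor gene (chromosome 9, 3793922 to 3794345), had folds of 4.82 and 5.88, and one in SYTL3 (chromosome 6, 158691490 to 158691821) had 5.33 and 5.32. COBLL1 followed with 4.39 and 5.88. Regions by WNK2, ACSS1, BTD, STN1 and CYB5A came next, with folds of 4.16 to 5.84 in normoxia and 4.66 to 5.03 with shZHX2.

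Of the 3 regions above the median −log10 p of both lists, 1 was that by UBE2G2. Another, on chromosome 2 at 226151168 to 226151544, had folds of 4.98 and 6.41 and lay 447514 bp from the nearest gene end. The third, on chromosome 21 at 8439773 to 8440394, had −log10 p of 75.2 and 118 but folds of only 1.14 and 1.12.

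Regained regions lay within 50 kb of an end of several luminal and oestrogen receptor genes. Of 30 such genes 11 had at least 1 (36.7%, where 6.20% of all protein-coding genes did), and 15 of their 67 lost regions were regained (22.4%, 14.1 to 33.7, where 12.7% was the overall share and 8.76 regions the number at the rate of the same strength deciles). Luminal genes had many open regions, with a mean of 7.80 in normoxia against 3.12 over all genes. TRPS1 had 3, GREB1, an oestrogen-induced growth gene, and GRHL2, an epithelial transcription factor gene, had 2 each, and those with 1 included ESR1, PGR, XBP1, MYB, AREG, NRIP1 and TFF3, named after their calls were seen. This pattern was already known when the list was written and is not independent support.

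In GREB1 a region on chromosome 2 at 11505992 to 11506819 had a fold of 3.79 in normoxia and 3.26 with shZHX2, and a second at 11532501 to 11532919 had 2.44 and 3.81. The region in ESR1, the oestrogen receptor gene (chromosome 6, 151706390 to 151706949), had 3.73 and 2.98. That by NRIP1, a corepressor of the receptor, had 4.22 and 4.19 (chromosome 21, 14916728 to 14917095). PGR, the progesterone receptor gene, had 12 lost regions of which 1 was regained, at 3.15 and 3.05, and no luminal gene had a regained region at a gene end. Distances to the nearest end of a luminal gene ran from 1614 bp at XBP1 to 49718 bp at ESR1, with 48489 bp at PGR and 44140 bp at NRIP1. With only normoxia and shZHX2 regions of −log10 q of at least 15, the number of luminal genes was 4, and with assignment within 20 kb it was 6.

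NF-kB targets and regulators had 6 of 21 lost regions regained (28.6%, 13.8 to 49.96) at 5 of 20 genes, where 12.7% of all lost regions were regained, 6.20% of all genes had one, and the rate of the same strength deciles gives 2.66 regions. CXCL8 had a fold of 3.64 in normoxia and 5.29 with shZHX2 at its start, with −log10 p of 21.9 and 40.6, and no hypoxia shCtrl region nearer than 10567 bp. CCL2, a chemokine that attracts monocytes, was called over a gene end at folds of 3.03 and 3.19 (chromosome 17, 34254702 to 34255388), with the nearest hypoxia shCtrl region 54308 bp away. IRF1, an interferon-regulated factor gene, had 2 of 4, and NFKBIA, the inhibitor of NF-kB, 1 of 6 and CD83 1 of 1, the last pair named after their calls were seen. The number of NF-kB genes with a regained region was 3 with lists of equal length and 3 with −log10 q of at least 15. The NF-kB list, too, was written with earlier results of these data known, so its counts are not independent support.

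HIF targets were regained at about the overall rate, with 3 of 26 lost regions (11.5%, 4.003 to 29.0) at 3 of 40 genes. These 3, named after their calls were seen, were KDM3A, a histone demethylase gene, with folds of 3.51 and 4.49, HK2, a hexokinase gene, with 2.73 and 3.90, and VEGFA, the vessel growth factor gene, with 2.50 and 2.76. The list of oxygen sensors and ZHX genes held 1 of 14, in EPAS1, which encodes HIF-2 alpha, at 3.52 and 4.38. ZHX2 itself had none.

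The other lists held at most 5 regained regions each, to be read against the overall share of 12.7%. Mesenchymal, invasion and basal genes had 5 of 39 lost regions regained (12.8%), AP-1 and stress factors 2 of 13, with the KLF6 region 982 bp from a gene end at folds of 3.85 and 3.39, housekeeping genes 1 of 19, the cell cycle list 1 of 10, the respiratory chain list 1 of 5 and the interferon list 1 of 3. Chromatin architecture genes had 0 of 13, which allows a share of up to 23.1%. Blood markers had 0 of 9 and stroma and endothelium markers 0 of 7, which allow up to 33.3% and 42.9%, and liver and neuron markers had 1 of 8. Over the 14 lists, 32 of 291 genes had a regained region and 3 had one at a gene end, CXCL8, CCL2 and KLF6, where 0.509% of all protein-coding genes did.

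**Figure D5:**
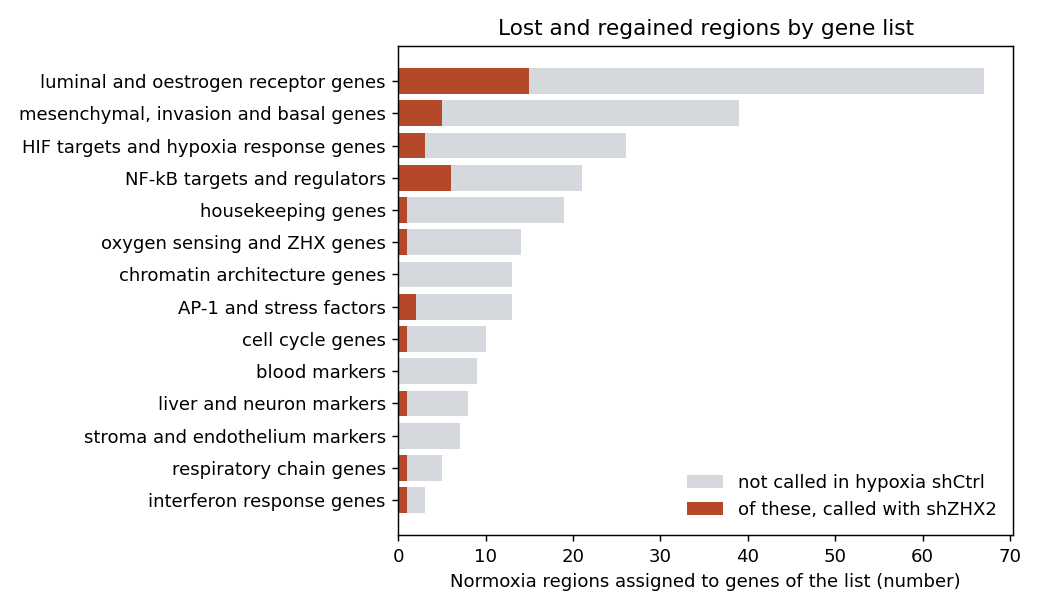
Number of normoxia regions assigned to the genes of each of 14 lists (x axis) that were not called in hypoxia shCtrl (grey) and, of these, called with shZHX2 (red). Luminal genes stand at 15 of 67 and NF-kB genes at 6 of 21, and 3 lists have none.

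The choice of threshold decided which sites count as regained. When each list kept only its 62779 regions of highest −log10 p, so that all were equally long, 2460 regions met the rule, but only 599 of the 2389 were touched by one of them. With normoxia and shZHX2 regions of −log10 q of at least 15, 790 regions met it.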

How the data were processed

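Transposition used a Nextera kit and sequencing gave paired ends, per the labels' protocols. Per the submitters' processing notes, FastQC, Bowtie2, SAMtools, MACS2 and hg38 were used; versions, settings, transposase shift and how 3 samples became 1 list are not given in the sources used here. Each deposited region carries the authors' score, −log10 p, −log10 q and fold, a ratio to background. These are the authors' values and rank regions within a list only.

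Lists were merged at an overlap of 1 bp with Python 3.11.15 and pandas 2.3.3; merging and distances were tested on simulated intervals. Where a merged region held several intervals of a list, the one with the highest −log10 p was used. Strength deciles and percentiles are of −log10 p except where fold is named. Gene ends came from a RefSeq table of GRCh38.p14 with 20050 protein-coding genes, which lacks strand; starts and strands were known for 15842 of them, so both ends were used. All 291 genes of the lists were found, 1 through an older symbol. Regions within 1 kb of an end were at a gene end, and regions within 50 kb were assigned to the nearest end.

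Named genes were those with at least 3 regained regions, list genes with 2 or with 1 at a gene end, and the genes of the 10 strongest regions. Some of these genes are not reported here. The members and gene lists were chosen with earlier results of these data known. Alternatives were an overlap of 50%, a −log10 q of 15, equal list lengths and other distances.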

Additional observations from a re-analysis of the deposited data

How the results depend on the processing

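The number of regained regions was 2342 with an overlap of at least 50% of the shorter interval, 2385 when regions within 500 bp of a hypoxia shCtrl region were also left out (an alternative chosen after seeing the data), 2460 with lists of equal length and 790 with a −log10 q of at least 15 in normoxia and shZHX2. The share at a gene end was 5.08% with lists of equal length, 2.80% within 500 bp and 2.51% within 1 kb of any annotated start of a protein-coding gene, alternative starts inside genes included, which was also added later. The share inside a gene was 49.9% with lists of equal length. The share with a hypoxia shCtrl region within 1 kb was 3.89%, 3.09% with lists of equal length and 0.167% within 500 bp. Luminal genes with a regained region numbered 4 with a −log10 q of at least 15 and 6 with assignment within 20 kb, against 11; NF-kB genes numbered 3 with a −log10 q of at least 15 and 3 with lists of equal length, against 5. The causes were not tested. Over the 250 bases before the start instead of the window, the shares of touched promoters were 9.86% for AP-1 and 12.7% for NF-kB, as before, 4.23% instead of 5.63% for GRHL and 15.5% instead of 21.1% for the hypoxia core. Motif searches in the centres of regions were not run, since no genome sequence was used here. No paired analysis was possible because each group has 1 list, and no replicate could be left out for the same reason. The depth behind the lists is unknown.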

Other observations

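The genes ACSS1, ACSS2 and ACSS3, which encode the enzymes that make acetyl-CoA from short fatty acids such as acetate, each had a regained region within 1 kb of a gene end, where 0.509% of all protein-coding genes did. They were noticed after the calls were seen, and no test was made. The region by ACSS1 lay 679 bp from the gene, on chromosome 20 at 25005205 to 25005558, at folds of 4.73 in normoxia and 4.85 with shZHX2. That of ACSS2 covered its end on chromosome 20 at 34927739 to 34928195, at folds of 3.17 and 4.68. That by ACSS3 lay 589 bp beyond the gene on chromosome 12, at 81261799 to 81262091, at folds of 3.46 and 3.68. For ACSS1 and ACSS2 the end in question is the one away from the start of transcription; the strand of ACSS3 was not in the promoter table used here.

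Among regained regions at a gene end, 35 lay at the outer end on the start side of the gene, 33 at the other end and 27 at genes without a strand in that table.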
